A study of Mus musculus with 2 samples.

Results

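The genes described here make, degrade and read cyclic AMP (cAMP) in the adrenal gland. They were chosen by a rule on the symbol that uses no measured value, though it was set with earlier results of these data known. Taken were the protein-coding genes whose symbols name a numbered adenylyl cyclase (Adcy), a phosphodiesterase (Pde), a subunit of protein kinase A (PKA), a numbered A-kinase anchoring protein (Akap), or a member of the CREB transcription factor family or its Crtc coactivators. This gave 59 genes of the 55536 in the gene table, of which 22028 are protein-coding. Total RNA from the adrenal glands of 2 female mice was sequenced, with 1 library for each animal. The mice were B6CASTF1/J, the F1 cross of C57BL/6J with CAST/EiJ, and were 18 to 20 months old. The labels name no allele, agent or other condition, so both animals form 1 group and no comparison between groups was possible. They are called animal 1 and animal 2 after their biological replicate numbers. Both carry the same donor identifier in the labels, and one label field of animal 2 repeats the name given to animal 1, while the remaining fields name separate females and tissue samples.

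Adenylyl cyclases form cAMP from ATP when a hormone receptor activates the G protein Gs. Phosphodiesterases break cAMP down again. PKA is held inactive by its regulatory subunits, and cAMP binding releases its catalytic subunits, which phosphorylate proteins nearby and, in the nucleus, CREB. In the adrenal cortex this pathway carries the signal of corticotropin (ACTH) from its receptor Mc2r to the synthesis of glucocorticoids. In people, inherited loss of PRKAR1A and changes in PDE8B, PDE11A and PRKACA have been linked to disorders of the gland with cortisol excess.

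CREB binds the cAMP response element, whose full form is TGACGTCA and whose shorter form is TGACGT. RefSeq gives windows from 250 bases before to 50 bases after annotated start sites on GRCm38.p6, the assembly also called mm10, and 47 of the 59 members had at least 1 such window (89 windows). Both strands were searched. Every full element also holds the shorter form. The full element was found in 1.79% of 32851 windows and in 2.03% of 27025 genes with a window, and among the 47 members in Prkar1a alone. The shorter form was found in 7.51% of windows and 8.37% of genes, and in 6 of the 89 member windows, which belong to 5 members, Adcy9, Akap11, Pde4a, Pde4b and Prkar1a. The Prkar1a sequence is printed because Prkar1a was the most abundant member in the gene table. It lies on the plus strand at chr11:109650699-109650920, and ends at the base before the GENCODE start of transcript Prkar1a-201 (109650921), with 13 bases between the element and that start. For transcripts that begin further upstream the stretch is intronic. The other sequences are 40 bases long, with the shorter form in the middle. They lie at chr16:4420500-4420539 (minus strand), chr14:78537060-78537099 (minus strand) and chr9:21184033-21184072 (plus strand). The printed Adcy9 and Akap11 stretches lie outside annotated transcripts, and the printed Pde4a stretch lies in introns of Pde4a-202 and Pde4a-204. Capitals mark the element, written as TGACGT or its reverse complement ACGTCA. The Pde4b stretch overlaps an annotated exon and is not printed.
Prkar1a: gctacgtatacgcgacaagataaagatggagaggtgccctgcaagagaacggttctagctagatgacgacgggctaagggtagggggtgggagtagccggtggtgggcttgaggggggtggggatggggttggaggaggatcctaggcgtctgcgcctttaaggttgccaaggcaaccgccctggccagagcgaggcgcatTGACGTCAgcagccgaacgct
Adcy9: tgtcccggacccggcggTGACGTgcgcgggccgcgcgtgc
Akap11: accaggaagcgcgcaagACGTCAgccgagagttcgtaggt
Pde4a: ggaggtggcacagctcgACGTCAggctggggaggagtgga
A match describes these letters only. None of the genes printed here differed by 2-fold between the animals, as given below.

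The gene tables hold expected counts, which are estimated reads per gene, and TPM, which is abundance per transcript length scaled to a fixed total, so TPM can be compared between genes. The libraries of animals 1 and 2 held 35769717 and 35135703 expected counts. No counts for a gene still allow up to 3, equal to 0.0839 and 0.0854 CPM (counts scaled by library total). These limits, like the counting intervals below, leave out all error other than counting. Reads were also not collapsed to single molecules. The tissue label was checked against marker genes. Summed TPM of 5 cortical markers was 15372 and 19698, and that of 8 chromaffin cell markers, which mark the adrenal medulla, was 2087 and 1784. Markers of other tissues were present too, and are given beside the results they moved with. In bulk tissue, fewer cells of a type and less RNA per cell cannot be told apart.

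A gene was called detected at 1 TPM or more in both libraries. Of the 59 members, 43 were detected (72.9%), against 52.4% of protein-coding genes. All 6 PKA subunits, all 3 CREB family factors and all 3 Crtc coactivators were detected. So were 13 of 16 phosphodiesterases that hydrolyse cAMP, 9 of 14 Akap genes, 6 of 10 adenylyl cyclases, and 1 of 5 phosphodiesterases specific for cyclic GMP (cGMP). There were 7 members under 0.1 TPM in both animals, namely Akap3, Akap4, Akap14, Pde1c, Pde11a, Pde6b and Pde6c. Akap3, Akap4, Pde6b and Pde6c had no counts in either library. Akap3 and Akap4 are known from the sperm tail and the Pde6 catalytic genes from photoreceptors.

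**Figure D1:**
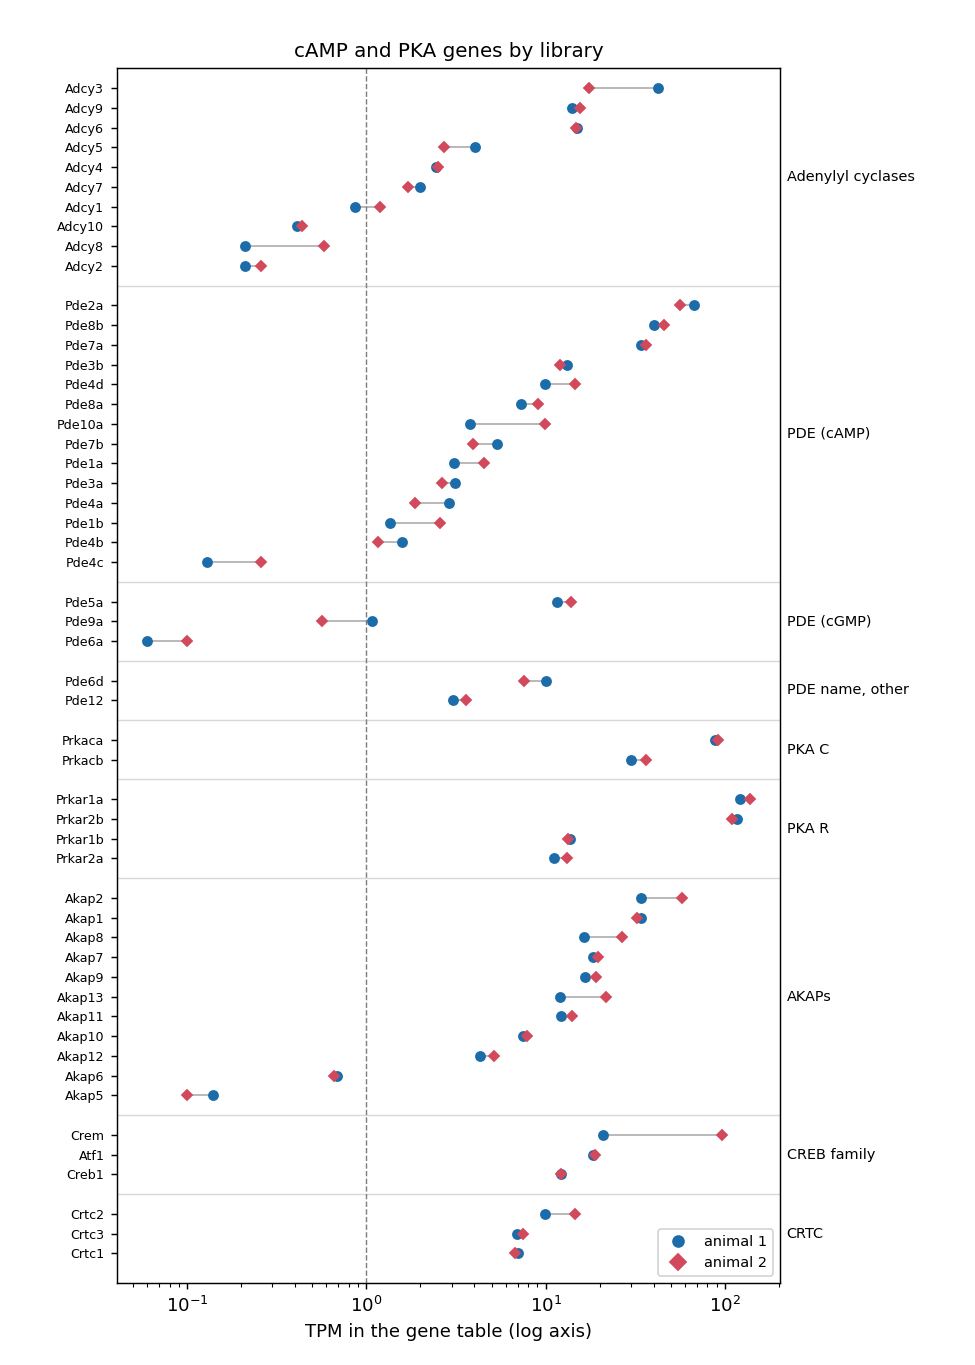
TPM of the 52 members at or above 0.1 TPM in either library, on a log axis, with a circle for animal 1, a diamond for animal 2 and a dashed line at 1 TPM. Prkar1a and Prkar2b lie highest at 110 to 138 TPM, and Crem has the widest gap, at 21.04 and 96.7 TPM.

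The animals were compared by the log2 ratio of animal 2 over animal 1 of expected counts scaled with TMM, a method that centres most genes on no difference. The call used below, at least 2-fold apart, asked for a ratio of 2 in either direction, 50 or more counts on average, and deposited TPM intervals that were separate. It is a rule of size without a p-value, since each animal gave 1 library. Of the 59 members, 47 averaged 50 counts or more, and 4 of these (8.51%) were at least 2-fold apart, against 3.46% of all genes under the same rule. Crem, Pde10a and Adcy8 were higher in animal 2, where 1.71% of all genes were called, and Adcy3 was higher in animal 1, where 1.75% were. The median log2 ratio of the 47 members was 0.03, and that of all genes was -0.01. The median size of the log2 ratio, without sign, was 0.21 for members and 0.22 for all genes. Within 1.25-fold lay 57.4% of the members and 66.0% of all genes. The TPM intervals were separate for 26 of the 47 members (55.3%) and for 33.1% of all genes. Scaling to the ERCC spike-ins, synthetic RNAs added to each library, moved the median of all genes to 0.21 and that of the members to 0.25. The number of members higher in animal 2 went from 26 under TMM to 37, so small differences are read here only relative to all genes.

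**Figure D2:**
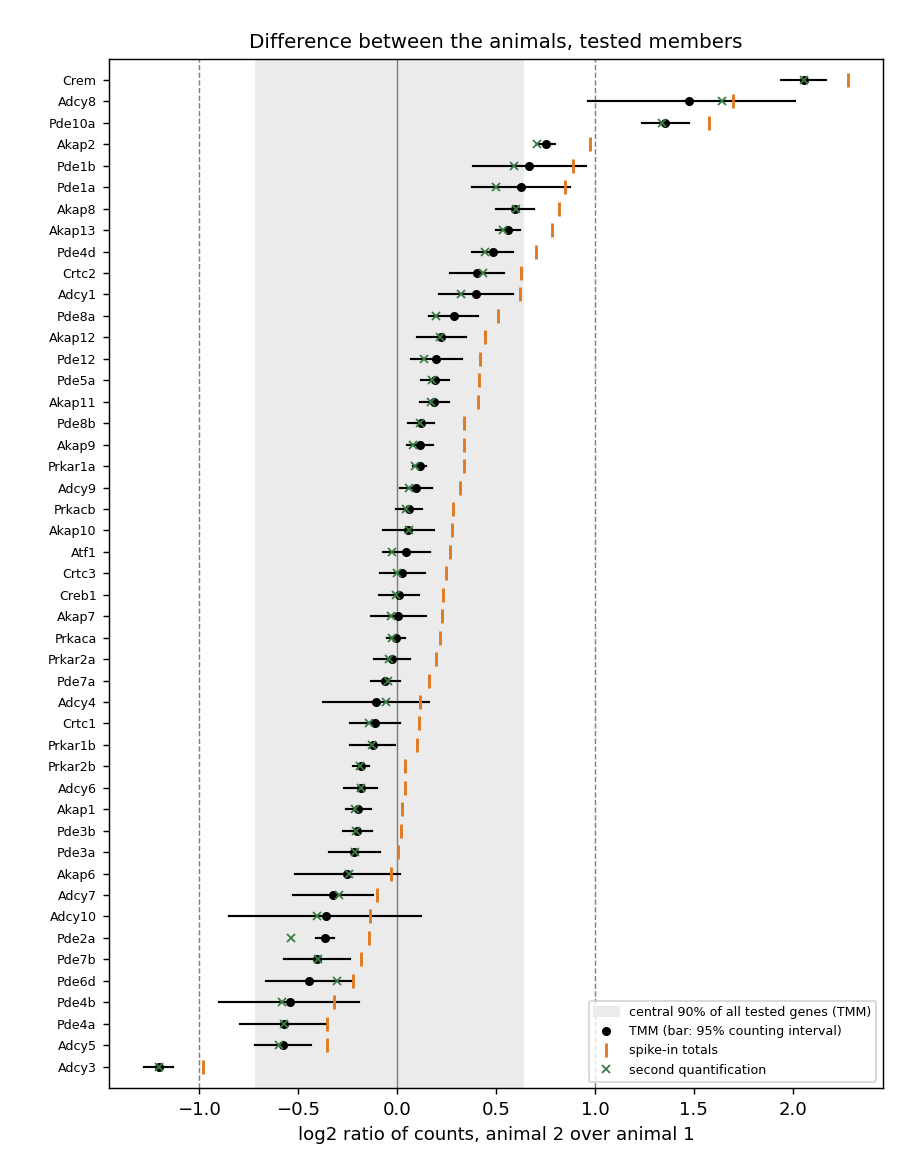
Log2 ratio of counts, animal 2 over animal 1, for the 47 members that averaged 50 counts or more, with TMM scaling (points, bars for the 95% counting interval), spike-in scaling (orange ticks) and the second quantification (green crosses). The grey band holds the central 90% of all genes, from -0.71 to 0.64, dashed lines mark 2-fold, and Crem, Adcy8, Pde10a and Adcy3 lie beyond them under TMM.

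Among the adenylyl cyclases, Adcy3 was the most abundant in both animals and was called higher in animal 1. Adcy3 (chr12:4133103-4213525), a membrane cyclase known from olfactory neurons and fat, had 5278 counts and 42.1 TPM in animal 1 and 2164 counts and 17.5 TPM in animal 2. This was 2.30-fold higher in animal 1, a log2 ratio of -1.20 (95% counting interval -1.28 to -1.13). The second quantification gave the same log2 ratio of -1.20. With spike-in scaling the log2 ratio was -0.98, just under 2-fold, and the call was lost. Adcy3 held 51.7% of the summed cyclase TPM in animal 1 and 30.5% in animal 2, a mean of 41.1% ± 15.0 (SD, n = 2). In animal 2 it stood close to the next cyclase. The coding transcript Adcy3-201 had 20.4 and 5.69 TPM in the first transcript table and 35.3 and 9.03 TPM in the second. Another coding transcript, Adcy3-207, differed less, at 5.23 and 3.66 TPM in the first and 8.40 and 5.21 TPM in the second. The non-coding transcript Adcy3-205 had 12.01 and 4.08 TPM in the first transcript table but 0.70 and 1.59 in the second, so its level is uncertain. Markers of fat moved the same way. All 7 adipocyte markers with enough counts were lower in animal 2 under both scalings, their list summed to 3354 and 2144 TPM, none was at 0, and Ucp1, the uncoupling protein of brown fat, was called at 743 and 298 TPM. Striated muscle markers together had 193 and 1.77 TPM in animals 1 and 2, with all 10 called higher in animal 1 and 5 at 0 in animal 2. The part of fat or muscle RNA in the Adcy3 difference was not tested.

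Adcy9 and Adcy6 followed, and their order was not the same in the animals. Adcy9 (chr16:4287529-4420498), a cyclase insensitive to forskolin, had 2519 and 2544 counts and 14.1 and 15.7 TPM. Adcy6, a cyclase inhibited by calcium, had 2483 and 2066 counts and 15.1 and 14.7 TPM. The deposited TPM intervals of the pair overlapped in both animals, so neither was above the other beyond that error. Adcy5, the closest relative of Adcy6, had 4.05 and 2.70 TPM, a log2 ratio of -0.58 that did not reach 2-fold. Adcy4 had 2.44 and 2.51 TPM and Adcy7 had 2.00 and 1.72 TPM. These levels left the lower cyclases at a few percent each of the family.

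Adcy8, a cyclase stimulated by calcium and calmodulin, was called in animal 2 from few reads. It had 40 and 106 counts, or 0.21 and 0.58 TPM, and was 2.79-fold higher in animal 2 with a log2 ratio of 1.48 (95% counting interval 0.97 to 2.01). Both values are under the detection level, and the interval reaches below 2-fold. Transcripts without a coding biotype held 71.4% and 60.3% of its TPM. Adcy1, also stimulated by calcium, had 0.87 and 1.19 TPM and was not called. The soluble cyclase Adcy10, which responds to bicarbonate, had 0.41 and 0.44 TPM, and Adcy2 had 0.21 and 0.26 TPM.

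The phosphodiesterases that hydrolyse cAMP were led by Pde2a, Pde8b and Pde7a, which together held 73.2% and 68.7% of the family's TPM. Pde2a (chr7:101421691-101512827), a dual enzyme that cGMP stimulates to degrade cAMP, had 9540 and 7004 counts and 67.6 and 56.2 TPM. Its log2 ratio was -0.36, within 1.5-fold. Pde8b (chr13:95024454-95250336), a high-affinity cAMP enzyme known from steroid-producing cells, had 3658 and 3752 counts and 40.2 and 46.0 TPM. Pde7a, another high-affinity cAMP enzyme, had 3107 and 2815 counts and 34.2 and 36.2 TPM. In the gene table the order Pde2a, Pde8b, Pde7a held in both animals.

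The order of these leaders depended on the quantification. In the second quantification Pde2a had 88.3 and 62.9 TPM, Pde7a 79.9 and 82.1 TPM, and Pde8b 65.5 and 74.4 TPM, so that Pde7a led in animal 2. The share of the family held by Pde2a was 34.9% and 27.9% in the gene table and 26.1% and 18.8% in the second quantification. Gm45837, an annotated gene that overlaps Pde2a on the same strand, was at 0 in the gene table and at 27.7 and 27.4 TPM in the second quantification, so reads at this locus were divided differently and the level of Pde2a is uncertain. With Gm45837 added, Pde2a stood at 116 and 90.3 TPM in the second quantification. Transcripts of Pde2a also differed between the tables. Pde2a-209, annotated as subject to nonsense-mediated decay, held 51.1% and 55.5% of Pde2a TPM in the first transcript table and 22.9% and 16.7% in the second. The coding Pde2a-204 held 31.7% and 21.1% in the first and 52.1% and 47.6% in the second. For Pde7a, transcripts without a coding biotype held 60.4% and 63.6% in the first table and 69.7% and 72.9% in the second, the larger part in each.

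Pde10a, a dual cAMP and cGMP enzyme known from the striatum, was the 1 phosphodiesterase called. Pde10a (chr17:8525372-8986648) had 784 and 1895 counts and 3.80 and 9.97 TPM. It was 2.56-fold higher in animal 2, with a log2 ratio of 1.36 (95% counting interval 1.24 to 1.48) and 1.34 from the estimated counts of the second quantification. By TPM the second quantification had 12.9 and 22.5, less than 2-fold apart. In the gene table, the printed TPM of animal 1 lay just under its own deposited interval of 3.90 to 5.44. The start group that holds the long coding transcript Pde10a-202 had 2.40 and 5.70 TPM, and the first start group of the gene had 0.79 and 2.09 TPM, so both were higher in animal 2. In the second transcript table these groups had 3.54 and 9.38 TPM and 1.12 and 4.44 TPM, also higher in animal 2. That table gave 5.83 and 4.11 TPM to 1 transcript starting further into the gene, which the first put at 0.00 and 0.31 TPM.

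The remaining cAMP enzymes were below Pde2a, Pde8b and Pde7a in the gene table, and none was called. Pde3b, an enzyme inhibited by cGMP that is known from fat, had 13.2 and 12.1 TPM. Pde4d, the most abundant of the cAMP-specific PDE4 enzymes here, had 9.93 and 14.6 TPM, a log2 ratio of 0.48. Pde8a, the paralog of Pde8b, had 7.28 and 9.12 TPM. Within the PDE4 group the members went in different directions, with Pde4a at 2.89 and 1.88 TPM and Pde4b at 1.59 and 1.16 TPM. The calcium-calmodulin enzymes Pde1a and Pde1b were at 3.09 and 4.54 TPM and at 1.35 and 2.59 TPM. Pde7b had 5.39 and 3.92 TPM and Pde3a had 3.14 and 2.63 TPM. Pde4c was at 0.13 and 0.26 TPM from 15 and 27 counts. Pde11a was at 0.05 TPM in both animals from 6 counts each.

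Of the phosphodiesterases specific for cGMP, Pde5a, the target of sildenafil, was the 1 detected. It had 3219 and 3472 counts and 11.6 and 13.9 TPM. Pde9a had 42 and 34 counts at 1.08 and 0.57 TPM, under the count minimum. Pde6a had 8 and 9 counts, and Pde6b and Pde6c had none. Both genes that carry a phosphodiesterase name without being cyclic nucleotide enzymes were detected. Pde6d, a chaperone for prenylated proteins, had 415 and 288 counts and 10.1 and 7.63 TPM. Pde12, a mitochondrial enzyme that trims RNA tails, had 899 and 975 counts and 3.03 and 3.60 TPM.

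The PKA subunits were the most abundant of the families per gene and differed little between the animals. Prkaca (chr8:83972993-83996443), the main catalytic subunit, had 7460 and 7023 counts and 88.3 and 91.1 TPM. Its paralog Prkacb had 3804 and 3748 counts and 30.1 and 36.3 TPM. Prkaca held 74.6% and 71.5% of catalytic TPM, a mean of 73.0% ± 2.17 (SD, n = 2). The log2 ratio was 0.00 for Prkaca and 0.06 for Prkacb, and both counting intervals included 0. The transcript Prkacb-208, of 493 bases, held 25.0% and 33.5% of Prkacb TPM in the first transcript table and 0.00% in the second, so the shares of its transcripts are uncertain.

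Among the regulatory subunits, Prkar1a and Prkar2b were each above 100 TPM. Prkar1a (chr11:109649405-109669656), the type I alpha subunit, had 14707 and 15049 counts and 122 and 138 TPM. Prkar2b (chr12:31958476-32061296), the type II beta subunit, had 11613 and 9664 counts and 117 and 110 TPM. In the second quantification Prkar2b stood at 218 and 195 TPM and Prkar1a at 198 and 210 TPM, so their order changed in animal 1. Prkar1b had 1328 and 1152 counts and 13.8 and 13.4 TPM. Prkar2a had 2079 and 1930 counts and 11.1 and 13.1 TPM. The widest log2 ratio of the 4 was that of Prkar2b, at -0.18. Type I subunits held 51.4% and 55.2% of regulatory TPM, a mean of 53.3% ± 2.67 (SD, n = 2). Summed regulatory TPM was above summed catalytic TPM by 1.15 and 1.11 on the log2 scale, a mean of 1.13 ± 0.03 (SD, n = 2). These values compare RNA and give no ratio of proteins.

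The start of Prkar1a transcripts was not settled by the deposited tables. In the first transcript table, the group of 2 transcripts that start between 109650575 and 109650921, next to the sequence printed above, held 89.0% and 88.7% of Prkar1a TPM. In the second table it held 17.8% and 18.5%, and the pair that starts at 109649405 held 81.8% and 80.3%. Each table gave nearly the same shares in both animals, so the gap lies between the quantifications and not between the mice. For Prkar1b, transcript Prkar1b-201 held 96.9% and 94.1% in the first table but 47.8% and 0.59% in the second.

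**Figure D3:**
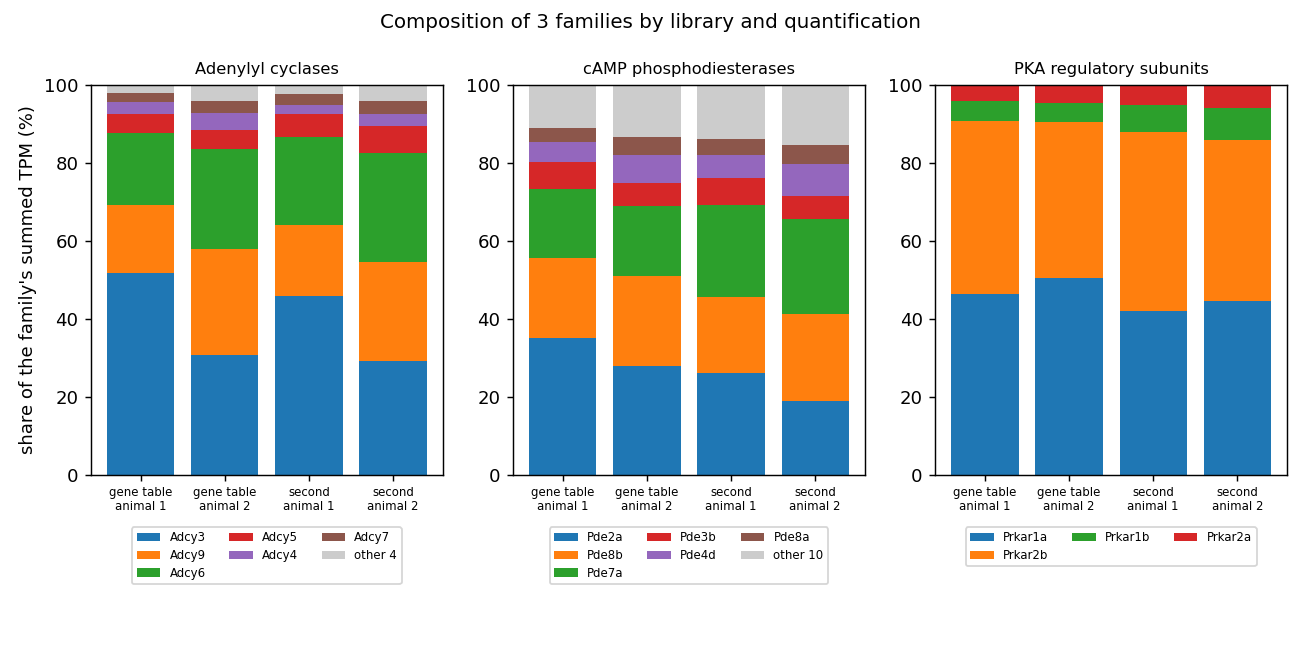
Share of each family's summed TPM, in percent, as stacked bars for the adenylyl cyclases, the cAMP-hydrolysing phosphodiesterases and the PKA regulatory subunits, with the gene table at left and the second quantification at right of each panel. The share of Adcy3 is 51.7% in animal 1 and 30.5% in animal 2 in the gene table, while Prkar1a and Prkar2b hold most of the regulatory TPM in every bar.

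The Akap genes place PKA at chosen sites in the cell, and none of the 10 tested was at least 2-fold apart. Akap2 (chr4:57717657-57896984) had 6588 and 10484 counts and 34.0 and 57.6 TPM, a log2 ratio of 0.75. It overlaps Pakap on the same strand, which had 18.9 and 21.1 TPM, and their counts were not whole numbers, so the split between the pair is uncertain. Akap1, which anchors PKA at the outer mitochondrial membrane, had 4652 and 3839 counts and 34.0 and 32.2 TPM. Akap2 thus led Akap1 in animal 2 but not beyond its interval in animal 1. Akap2 held 21.8% and 28.1% of Akap TPM.

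Akap8, a nuclear anchor protein, had 1486 and 2124 counts and 16.4 and 26.5 TPM, a log2 ratio of 0.60. Transcripts of Akap8 without a coding biotype held 58.1% and 78.2% of its TPM in the first transcript table and 41.2% and 54.1% in the second. Akap13, a large scaffold protein, had 3532 and 4923 counts, a log2 ratio of 0.56. These log2 ratios and that of Akap2 were the widest among the tested Akap genes. Akap7 had 18.5 and 19.6 TPM, Akap9, a large protein of the centrosome and Golgi, had 16.7 and 19.2 TPM, and Akap11 had 12.3 and 14.1 TPM. Akap10 had 7.45 and 7.84 TPM, and Akap12, a scaffold at the plasma membrane, had 4.30 and 5.17 TPM. Their log2 ratios lay between 0.01 and 0.23. Akap6, an anchor of the nuclear envelope known from heart and skeletal muscle, had 256 and 203 counts at 0.69 and 0.66 TPM. Akap5 had 28 and 23 counts and Akap14 had 2 and 0.

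In the CREB family, Crem had the widest ratio between the animals of the 47 members that averaged 50 counts or more, while Creb1 and Atf1 hardly differed. Creb1 (chr1:64532645-64604548), the activator that PKA phosphorylates, had 1577 and 1499 counts and 12.2 and 12.3 TPM. Atf1, its close relative, had 1143 and 1115 counts and 18.3 and 18.9 TPM. Crem (chr18:3266048-3337748) encodes activators and repressors that bind the same element. It had 770 and 3022 counts and 21.04 and 96.7 TPM. This was 4.15-fold higher in animal 2, a log2 ratio of 2.05 (95% counting interval 1.94 to 2.17), with 2.06 in the second quantification and 2.28 with spike-in scaling. Creb1 held 23.7% and 9.59% of the family's TPM, a mean of 16.7% ± 9.99 (SD, n = 2), with its own TPM nearly the same in both.

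Crem has, as background, an internal promoter near its end from which short repressors called ICER are made in response to cAMP. GENCODE lists 39 Crem transcripts, which fall into 6 groups by start site. The last group holds 7 transcripts that start 56.0 kb into the gene, within 691 bases of each other, with coding sequences of 285 to 375 bases. These had 17.4 and 83.1 TPM, or 82.9% and 85.9% of Crem TPM, and were 4.77-fold higher in animal 2 by TPM. In counts they held 65.0% and 64.2% of the gene, since short transcripts weigh more in TPM. The other 32 transcripts summed to 3.61 and 13.6 TPM and were 3.76-fold higher in animal 2. By counts the order of the folds was the opposite, at 3.88-fold for the internal group and 4.01-fold for the others. In the second transcript table the internal group had 31.5 and 126 TPM (4.02-fold) and the others 12.9 and 47.9 TPM (3.73-fold). The internal group and the sum of the other starts were thus higher in animal 2 in both tables. This did not hold for each other group. In the first table the third group had 0.38 and 0.27 TPM, and the fourth was at 0 in both animals. Single transcripts were not all stable between the tables. Crem-235, of the internal group, held 14.3% and 31.6% of Crem TPM in the first and 21.9% and 25.0% in the second. Crem-219, of the same group, was closer, with 22.0% and 16.2% in the first and 17.0% and 15.4% in the second.

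**Figure D4:**
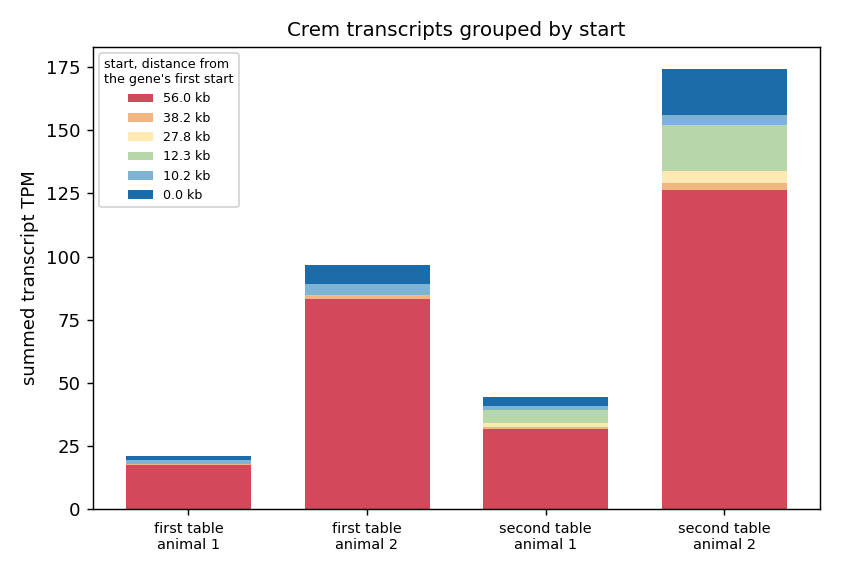
Summed TPM of Crem transcripts by start group, as stacked bars for each animal in each transcript table, with groups named by distance in kb from the first start of the gene. The internal group at 56.0 kb makes up 71.0% to 85.9% of each bar, and the animal 2 bars stand above those of animal 1 in both tables.

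Markers of the X-zone, an inner cortical zone of the mouse adrenal, moved in the same direction as Crem, Pde10a and Adcy8. The 3 markers summed to 138 and 1075 TPM, with none at 0. Akr1c18, a steroid-metabolising enzyme, had 116 and 1034 TPM and Pik3c2g, a lipid kinase, had 1.52 and 13.2 TPM, and both were called higher in animal 2. Thrb, the third marker, had 19.8 and 27.8 TPM and was not called. Macrophage markers (105 and 124 TPM) and endothelial markers (152 and 168 TPM) also summed higher in animal 2. So did the cortical markers given above, and those of the zona glomerulosa, another cortical zone (854 and 866 TPM). Under TMM, 5 of 6 macrophage and 3 of 5 cortical markers were higher. None of these was called, and the other listed markers summed lower in animal 2. The part of the X-zone or of these other cell types in the differences of Crem, Pde10a and Adcy8 was not tested.

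The Crtc coactivators bind CREB once they are freed from phosphorylation by salt-inducible kinases. Crtc2 had 778 and 972 counts and 9.87 and 14.6 TPM, a log2 ratio of 0.40. Crtc3 had 1272 and 1223 counts and 6.94 and 7.51 TPM. Crtc1 had 1087 and 950 counts and 7.01 and 6.73 TPM. None was called, and Crtc1 and Crtc3 were not separate from each other by their TPM intervals in either animal. For Crtc2, transcripts without a coding biotype held 59.5% and 65.0% of TPM in the first table and 26.2% and 35.3% in the second.

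Other genes of the pathway were taken from fixed lists. Of 9 G protein alpha subunits none was called, and the median log2 ratio was -0.09. Gnas, which encodes Gs alpha, had 842 and 771 TPM, about an order of magnitude above Gnai2 at 63.8 and 71.7 TPM. The Gnas value covers all transcripts of the gene, and the part that encodes Gs alpha was not separated. Of 18 listed genes, comprising receptors that act through Gs and the Mc2r partner Mrap, 10 had enough counts, 1 was called higher in animal 2 and 2 in animal 1, with a median of -0.39. Mc2r, the ACTH receptor, had 116 and 106 TPM, and Mrap, which carries it to the membrane, had 184 and 336 TPM, a log2 ratio of 0.82. The beta-adrenergic receptor Adrb1, at 1.65 and 0.60 TPM, and the thyrotropin receptor Tshr, at 3.54 and 1.73 TPM, were called higher in animal 1. Both were at low levels.

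Of 12 other cAMP effectors, PKA inhibitors and related kinases, 7 had enough counts and none was called. Rapgef4, a cAMP-activated exchange factor for Rap also called Epac2, had 83.3 and 84.1 TPM, close to the level of Prkaca. Rapgef3, or Epac1, had 3.95 and 3.97 TPM. The PKA inhibitor Pkig had 12.2 and 11.6 TPM. None of 7 salt-inducible kinases and CREB partners was called, with a median log2 ratio of 0.32 and 4 of 7 higher in animal 2. Sik2 had 25.7 and 36.3 TPM, Sik3 had 15.6 and 26.7 TPM, and Sik1 had 14.3 and 12.5 TPM. None of 9 anchoring proteins with other names was called either, with a median of 0.01. None of 6 genes of cGMP synthesis and action was called, with a median of -0.27. Of the 3 partners of photoreceptor Pde6 and related names, 1 had enough counts, Pde4dip at 12.5 and 7.47 TPM, and it was not called.

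Of 14 genes known to be induced early through CREB, 13 had enough counts and 1 was called. Fosb, a subunit of the AP-1 factor, had 54 and 680 counts and 0.78 and 7.0 TPM, higher in animal 2 like Crem. The orphan receptor Nr4a3 had 15.5 and 32.4 TPM, a log2 ratio of 1.00 that missed the rule by a small margin. Its relative Nr4a1 had 85.8 and 83.0 TPM and the clock gene Per1 had 15.2 and 20.1 TPM, and neither was called. Star, the cholesterol carrier of steroid synthesis, had 2984 and 5374 TPM, a log2 ratio of 0.90. The list had a median log2 ratio of 0.13, with 8 of 13 higher in animal 2 under TMM and 11 with spike-in scaling.

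The deposited quantifications were compared member by member. The second gave higher TPM than the first for most genes, with a median ratio of 1.88 and 1.78 over all genes in animals 1 and 2 and 1.94 and 1.78 over the 43 detected members. Members at least 2-fold apart in the same direction in both libraries numbered 8 of 43, against 26.4% of all genes. All 8 were higher in the second. They were Akap8, Atf1, Crtc3, Pde10a, Pde7a, Prkacb, Prkar1b and Prkar2a. The ratio was widest for Pde10a in animal 1, at 3.39, and for Prkar1b in animal 2, at 2.92. Relative to the median over all genes, a centring chosen after the data were seen, no member was 2-fold apart in both libraries, against 4.68% of all genes. The log2 ratio of counts between the animals differed between the quantifications by little for Crem, Adcy3 and Pde10a, and for Adcy8 it was 1.48 and 1.64.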

How the data were processed

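Per the file headers, the authors deposited for each library a gene table and a transcript table with expected counts and TPM, and a second transcript table with estimated counts and TPM. The deposited transcript table also gives each transcript's percentage of its gene, per the file headers, but shares were recomputed here from TPM. The gene table holds bounds of a TPM interval of unstated level, read here as 95%. Per the labels, 300 ng of ribosome-depleted RNA with ERCC spike-ins went into a strand-preserving kit, and the build was mm10 with GENCODE M21. For the programs used, names and versions were not given in the sources used here. All 55536 gene identifiers matched GENCODE M21.

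Expected counts were rounded, 0.5 was added, and log2 ratios used TMM factors from edgeR 4.0.16 under R 4.3.3. DESeq2 1.42.0 size factors and spike-in totals were alternatives. Transcripts were grouped where start sites lay within 1000 bases. The scripts were tested on simulated data. Genes named in full were the leading 3 of each family, all PKA, CREB and Crtc genes and every called member, and transcripts were named at a share of at least 10%. The members, lists and rules were chosen with earlier results of these data known. Differences between the animals include those between library preparations. The values of 1 gene of a pathway list are not reported here.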

Additional observations from a re-analysis of the deposited data

How the results depend on the processing

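With 2 libraries of 1 group the values describe these animals, and neither a p-value nor the spread among further mice can be had. No paired analysis was possible because the labels give 1 group, with no second group to pair. A threshold of 1.5-fold in place of 2-fold gave 8 members apart in place of 4, adding Akap2, Akap8, Pde1a and Pde1b. With spike-in scaling Adcy3 left the call, and all 3 remaining were higher in animal 2. In the second quantification the mean share was 22.5% for Pde2a and 68.3% for Prkaca, and regulatory over catalytic TPM was 1.02 on the log2 scale. CPM in place of TPM gave 65.7% for Prkaca, 56.1% for type I subunits, 35.9% for Creb1, and 1.38 for regulatory over catalytic on the log2 scale. The cause of these shifts was not tested beyond the change of table or of length correction. Leaving out 1 animal gave 44 detected members either way, and shares of 30.5% to 51.7% for Adcy3, 27.9% to 34.9% for Pde2a, 71.5% to 74.6% for Prkaca, 51.4% to 55.2% for type I subunits, 21.8% to 28.1% for Akap2 and 9.59% to 23.7% for Creb1. Of the 47 members' log2 ratios, 47 stayed inside their own 95% counting interval under DESeq2 size factors and 46 in the second quantification, with Pde2a outside. Spike-in scaling adds the same constant to every log2 ratio, and 40 of the 47 then lay outside their interval.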
